A study of Mus musculus with 79 samples.

Results

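The 10 genes described here are feedback targets of Wnt signalling (Axin2, Sp5, Nkd1, Notum, Dkk1 and Lgr5) and the TCF/LEF factors Lef1, Tcf7, Tcf7l1 and Tcf7l2. They were taken by symbol from a table of 35230 mouse genes measured by RNA sequencing in 79 libraries. All 10 passed the filter on low values, which asked for at least 1 RPKM (reads scaled to exon length and library depth) in at least 2 libraries and left 15267 genes. Lgr5 passed it through 9 libraries at a single condition, EB D6, so its differences there are given as a description. The libraries came from 4 lines: TET KO, a triple knockout of Tet1, Tet2 and Tet3, and TET WT, its parental line, and DNMT KO, a triple knockout of Dnmt1, Dnmt3a and Dnmt3b, and DNMT WT, its own parental line. Each line was sampled as embryonic stem cells in 2i/LIF medium on day 0 (ESC D0), as epiblast-like cells on days 1 and 2 (EpiLC D1 and D2) and as embryoid bodies on days 2, 4, 6 and 8 (EB D2, D4, D6 and D8). Of these 28 groups, 23 held 3 libraries, and 5 held 2: both knockouts at EB D2, and DNMT WT at EB D4, EpiLC D1 and ESC D0.

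Wnt ligands bind Frizzled receptors and Lrp5 or Lrp6 at the cell surface, and this keeps beta-catenin from being degraded by a complex of Axin, Apc and the kinase Gsk3. Stabilised beta-catenin joins TCF/LEF proteins on DNA and turns on target genes, several of which encode brakes on the pathway itself. Axin2 rebuilds the destruction complex, Nkd1 binds Dishevelled, Notum removes a lipid from secreted Wnt proteins, Dkk1 blocks Lrp5 and Lrp6, Sp5 is a zinc-finger factor that acts on Wnt target genes, and Lgr5 is a receptor for R-spondins. Among the TCF/LEF proteins, Tcf7l1 is known mainly as a repressor in mouse embryonic stem cells, whereas Tcf7 and Lef1 are known for activation with beta-catenin. Stem cells in 2i/LIF are kept with an inhibitor of Gsk3, which engages the same pathway, and Wnt signalling is later needed for the primitive streak and mesoderm.

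In the GRCm38 genome, Axin2 (ENSMUSG00000000142) lies at chr11:108920349-108950783, Sp5 (ENSMUSG00000075304) at chr2:70474923-70477729 and Nkd1 (ENSMUSG00000031661) at chr8:88521354-88594884, all on the forward strand. Notum (ENSMUSG00000042988, chr11:120653788-120661175), Dkk1 (ENSMUSG00000024868, chr19:30545863-30549665) and Lgr5 (ENSMUSG00000020140, chr10:115450311-115587780) are on the reverse strand. Lef1 (ENSMUSG00000027985, chr3:131110471-131224356) and Tcf7l2 (ENSMUSG00000024985, chr19:55741810-55933654) are on the forward strand. Tcf7 (ENSMUSG00000000782, chr11:52252371-52283014) and Tcf7l1 (ENSMUSG00000055799, chr6:72626378-72789254) are on the reverse strand.

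Promoter windows of 300 bases were taken from RefSeq (GRCm38.p6), in which 8 of the 10 genes matched, with 13 windows in all. The windows of Sp5, Dkk1 and Axin2 are shown because these 3 genes had the largest changes of the feedback targets at EB D4 in TET KO. Capitals mark the TCF/LEF letters CTTTGAT and CTTTGTT, searched on both strands (ATCAAAG and AACAAAG on the other strand), and the windows read 5′ to 3′ along the gene.
Sp5, chr2:70474673-70474972, forward strand: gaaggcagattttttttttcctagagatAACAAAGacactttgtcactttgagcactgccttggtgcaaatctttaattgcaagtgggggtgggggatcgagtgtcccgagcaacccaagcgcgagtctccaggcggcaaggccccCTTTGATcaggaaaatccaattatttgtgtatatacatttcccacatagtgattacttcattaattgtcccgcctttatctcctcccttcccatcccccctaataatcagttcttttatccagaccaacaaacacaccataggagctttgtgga
Dkk1, chr19:30549447-30549746, reverse strand: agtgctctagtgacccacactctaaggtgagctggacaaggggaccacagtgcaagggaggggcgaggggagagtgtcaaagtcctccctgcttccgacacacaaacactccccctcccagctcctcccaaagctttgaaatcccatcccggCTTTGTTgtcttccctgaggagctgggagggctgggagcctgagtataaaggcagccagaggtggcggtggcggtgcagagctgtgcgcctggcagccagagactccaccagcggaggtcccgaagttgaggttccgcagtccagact
Axin2, chr11:108920099-108920398, forward strand: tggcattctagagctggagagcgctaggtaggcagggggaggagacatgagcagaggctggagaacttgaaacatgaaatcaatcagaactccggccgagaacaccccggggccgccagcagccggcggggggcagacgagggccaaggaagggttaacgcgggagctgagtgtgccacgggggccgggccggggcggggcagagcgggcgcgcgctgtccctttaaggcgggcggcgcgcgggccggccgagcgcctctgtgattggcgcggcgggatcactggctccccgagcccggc
The Sp5 window held CTTTGAT on its own strand 104 bases before the start and CTTTGTT on the other strand 222 bases before it, and the 2 matches did not overlap. The Dkk1 window held CTTTGTT on its own strand 98 bases before the start, and the Axin2 window held neither run of letters. Of 32851 promoter windows of the same length, 3.73% held CTTTGAT and 5.85% held CTTTGTT. Among the other members, CTTTGTT was found in 1 of the 2 windows of Tcf7l2, 14 bases before its start. The Axin2 window held 31 CpG dinucleotides, Dkk1 9 and Sp5 6, against a median of 7 over all windows. A match describes the letters and is not a site.

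Depth was 7.76 to 13.9 M reads per library (median 11.2 M). Replicates correlated at 0.983 or above. Nothing in the labels ties replicates to separate cultures, and the p-values measure only how these libraries vary, which may be technical. With 1 line per genotype, knockout effects and other ways in which the lines differ cannot be told apart. Of the targeted genes, Dnmt1 and Dnmt3a were called lower in DNMT KO at 7 of 7 conditions and Dnmt3b at 6. In TET KO, Tet1 was called lower at 4, Tet2 at 1 and Tet3 at 0. With the 7 conditions pooled, the ranges of all 3 overlapped between the TET lines. Those of Dnmt3a and Dnmt3b also overlapped between the DNMT lines, and those of Dnmt1 did not. Which exons were deleted is not stated in the labels, and reads outside them check nothing. One TET WT library at EB D4, replicate 2, stood apart with 66555 RPKM of the gene Gm42418. At EB D4, the changes and counts of members between the TET lines are given with and without it. TET WT replicate 1 at EB D2 was also high in this gene (11593 RPKM), and without it the log2 changes in TET KO at EB D2 were -3.76 for Notum, -1.88 for Dkk1 and 0.94 for Tcf7, with the same calls. At ESC D0 the summed level of 6 naive stem cell markers (Nanog, Esrrb, Klf4, Zfp42, Tfcp2l1 and Tbx3) was 1105 RPKM or more in every library. Differences on the log2(RPKM + 0.5) scale were called where the adjusted p was below 0.05 and the log2 change was 1 or more in either direction. The scale understates changes of low genes, and "rose" and "fell" are used for called differences.

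The first comparison asked how the genes moved as the stem cells differentiated. The feedback targets fell into 2 courses. Axin2, Sp5 and Notum were already present in stem cells and had fallen by EpiLC D2 in all 4 lines, and Nkd1, Dkk1 and Lgr5 were low in stem cells and higher in embryoid bodies at EB D6. In bulk RNA, fewer cells of a type and less RNA per cell cannot be told apart. Over 6 conditions against ESC D0 and 10 genes, 31 of 60 differences were called in TET KO (23.2% of all differences over all genes tested) and 31 in TET WT (22.7%). The counts were 22 in DNMT KO (19% of all differences) and 30 in DNMT WT (23.9%). The counts in TET KO, TET WT and DNMT WT each include Lgr5 at EB D6, where the filter on low values selected it. The 4 lines share the fit, and each line uses its own ESC D0 libraries for all 6 conditions.

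Sp5 is the clearest case of the first course. At EpiLC D1 it had no read in any of 3 TET KO, 3 TET WT and 2 DNMT WT libraries, and 5, 3 and 1 reads in the 3 DNMT KO libraries. Against this, Sp5 at ESC D0 stood at 17.4, 16.3 and 13.7 RPKM in TET KO, 32.9, 33.0 and 34.0 in TET WT, 27.1, 23.5 and 25.3 in DNMT KO and 20.4 and 23.7 in DNMT WT. The loss at EpiLC D1 was therefore at least 128-fold in TET KO, at least 255-fold in TET WT and at least 182-fold in DNMT WT, with a floor of 3 reads per library. Reads were still scarce at EpiLC D2, with at most 7 in any library, and at EB D2 TET WT again had none in 3 libraries, at least 266-fold lower than at ESC D0. At EB D4 reads of Sp5 were present in every library, at levels that differed between the lines.

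Axin2 fell less than Sp5. In TET WT it was 0.844, 1.04 and 2.06 RPKM at EpiLC D2, against 20.2, 19.4 and 20.5 at ESC D0 (log2 change -3.56). The corresponding change was -3.50 in TET KO, -1.76 in DNMT KO and -1.60 in DNMT WT. At EB D6, Axin2 was 13.5 to 15.7 RPKM in TET WT and 14.8 to 16.6 in DNMT WT. Its highest mean was at EB D4 in TET KO and at EB D6 in DNMT WT, and at ESC D0 in the other 2 lines.

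Notum, the extracellular inhibitor, fell and had its lowest mean at EB D8 in both parental lines. Its fall came after EpiLC D1 in the DNMT lines, where the change against ESC D0 was still 0.24 in DNMT KO and 0.30 in DNMT WT, and by EpiLC D2 it was -1.90 and -2.48 in the same lines. In TET WT it was 0.372, 0.477 and 0.439 RPKM at EB D8, against 57.1, 53.7 and 58.8 at ESC D0 (log2 change -5.94). In DNMT WT the change at EB D8 was -3.71, and in TET KO -4.22. DNMT KO was the exception: Notum there was 8.06, 10.05 and 9.03 RPKM at EB D8, against 12.2, 12.1 and 11.9 at ESC D0, a log2 change of -0.41. Among the 7 conditions in DNMT KO its mean was lowest at EpiLC D2, where it was 2.73, 3.11 and 2.78 RPKM.

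Nkd1 and Dkk1 followed the second course, with their highest means at EB D6 in both parental lines. Nkd1 reached 13.6, 11.3 and 11.8 RPKM at EB D6 in TET WT, against 0.252, 0.414 and 0.304 at ESC D0 (log2 change 3.95). Its change at EB D6 was 3.75 in DNMT WT, 2.73 in TET KO and 1.22 in DNMT KO, the last of which missed the size threshold with a pseudocount of 1 RPKM (0.95) or quantile normalization (0.85). Dkk1 was 11.4, 8.79 and 10.01 RPKM at EB D6 in TET WT, against 1.02, 0.368 and 1.21 at ESC D0 (log2 change 3.00). At EpiLC D1 Dkk1 had no read in any TET WT or TET KO library. Lgr5 had no read in any TET KO or TET WT library at ESC D0 and at most 5 reads in a DNMT library. At EB D6 it was at least 62.5-fold higher in TET KO and at least 98.4-fold higher in TET WT than this floor.

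**Figure D1:**
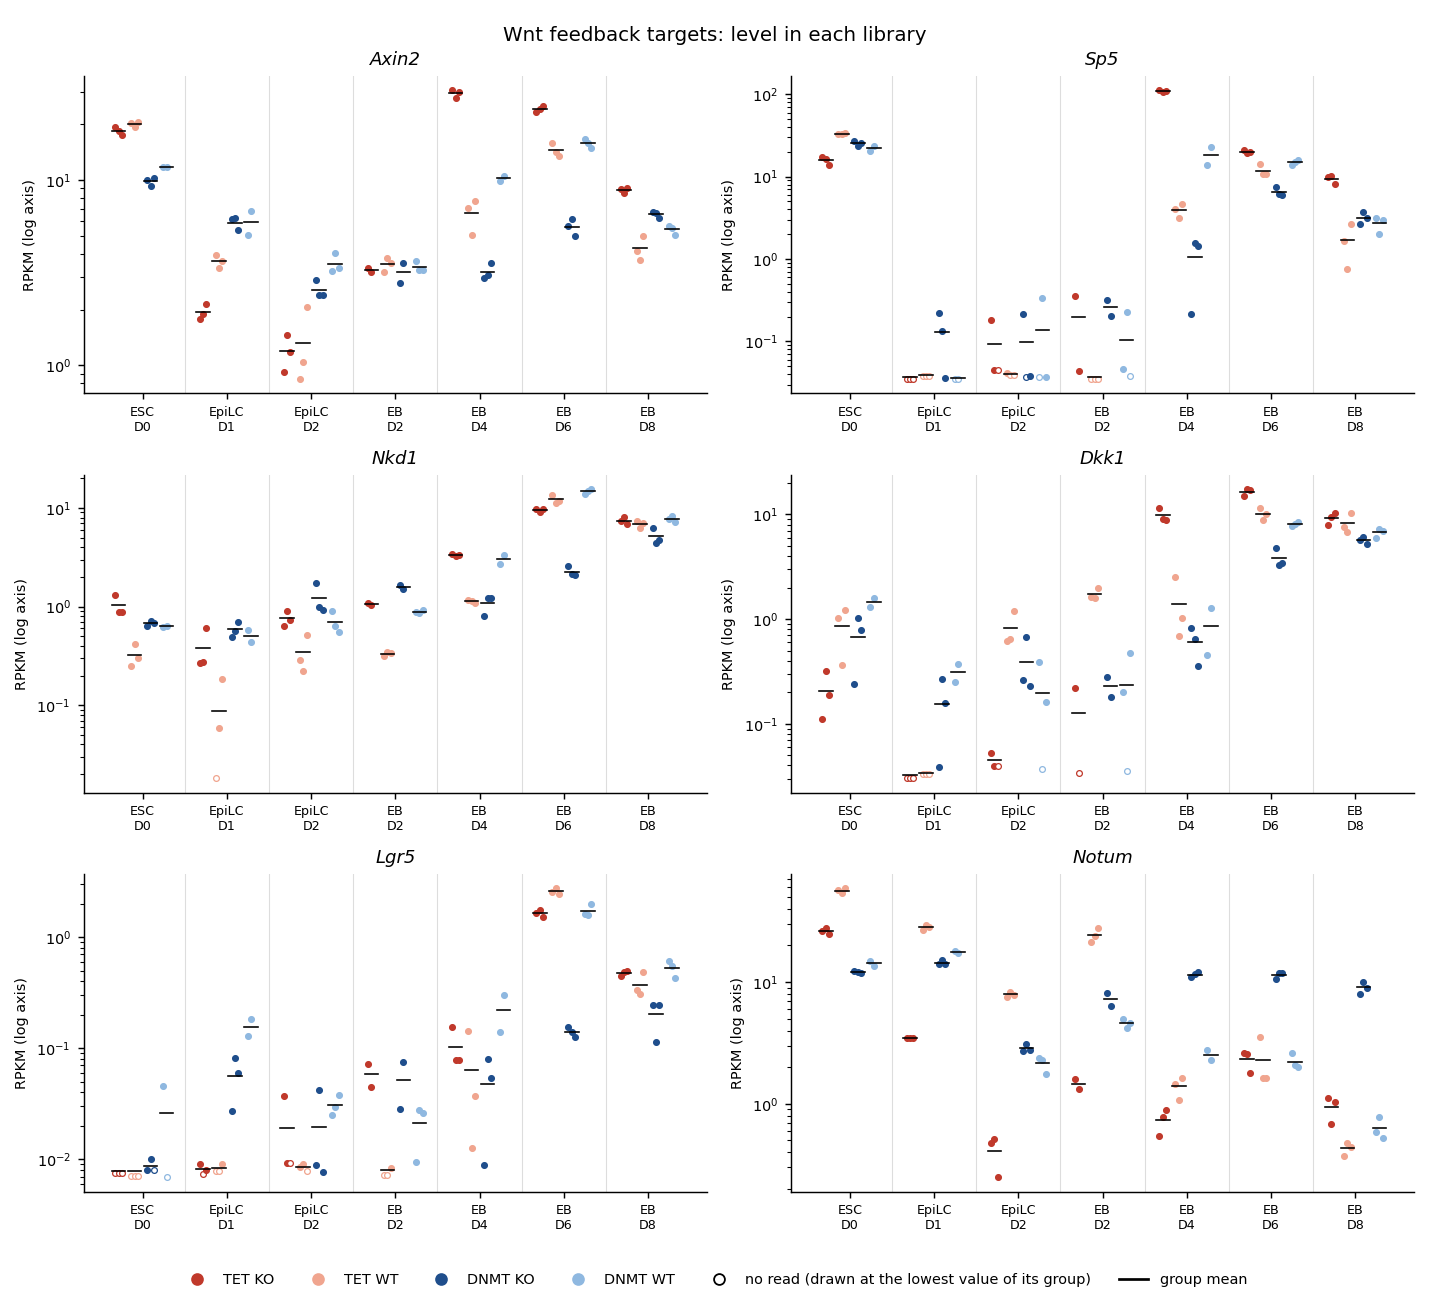
Level of 6 Wnt feedback targets in each library, in RPKM on a log axis, at 7 conditions in TET KO, TET WT, DNMT KO and DNMT WT. Filled points are libraries, open points libraries without a read (drawn at the lowest value of their group), and black lines group means, in which a library without a read counts as 0.9 reads. Sp5 was at 112, 106 and 110 RPKM in TET KO at EB D4, above every other library.

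The second comparison asked which of these genes differed between TET KO and its parental line. In TET KO, 15 of 70 differences were called, 6 higher and 9 lower, against 7.6% of all differences over all genes tested (4.88% higher and 2.72% lower). By condition, 2 members were called at ESC D0 (6.78% of all genes), 3 at EpiLC D1 (6.62%), 2 at EpiLC D2 (7.9%) and 2 at EB D2 (7.41%). The direction split by time: 8 of the 9 falls came before EB D4, while all 6 rises except that of Lef1 at EpiLC D1 came at EB D4 or EB D8. Notum and Dkk1 were lower before EB D4, and Sp5, Axin2, Dkk1 and Nkd1 were higher at EB D4.

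At EB D4, 5 of 10 members were called in TET KO (9.47% of all genes), 4 higher (7.6% of all genes) and 1 lower (1.87%). Sp5 was 112, 106 and 110 RPKM in TET KO, against 4.0, 3.13 and 4.71 in TET WT, 27.7-fold in mean RPKM (log2 change 4.64 ± 0.37 SE, adjusted p = 9.47e-06). No other library of the series reached the TET KO values. Axin2 was 30.5, 27.7 and 29.7 RPKM in TET KO, against 7.10, 5.05 and 7.71 in TET WT (2.08 ± 0.15 SE, adjusted p = 6.05e-09), 4.42-fold in mean RPKM. Dkk1 was 11.4, 9.01 and 8.89 RPKM in TET KO, against 2.50, 0.690 and 1.03 in TET WT (2.54 ± 0.33 SE, adjusted p = 0.000133). The groups did not overlap for these 3 genes, although the TET WT libraries of Dkk1 were spread widely. Nkd1 was 3.45, 3.24 and 3.32 RPKM in TET KO, against 1.16, 1.13 and 1.10 in TET WT (1.24 ± 0.15 SE, adjusted p = 3.48e-06). Notum lay below its TET WT range, at 0.541, 0.782 and 0.888 RPKM in TET KO, against 1.46, 1.07 and 1.64 in TET WT, a log2 change of -0.61 that missed the size threshold (-0.74 without TET WT replicate 2). Lgr5 had 9 to 17 reads in TET KO, against 1 to 15 in TET WT, and did not pass the test (log2 change 0.10, and 0.036 without TET WT replicate 2).

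All genes together were shifted at EB D4, where the median log2 change over all genes tested was 0.19, against 0.62 over the 10 members (0.06 and 0.48 without TET WT replicate 2). With library medians set equal (centring), the median of all genes moved by -0.30. Under it the changes were 4.34 for Sp5, 1.78 for Axin2, 2.24 for Dkk1 and 0.94 for Nkd1, so that Nkd1 missed the size threshold, as it did with quantile normalization (0.91). Without TET WT replicate 2, the library with the high Gm42418 value, the changes were 4.50, 1.91, 2.25 and 1.24 in the same order, and 5 of 10 members were called again. Nkd1 is on chromosome 8, whose 821 genes tested had a median log2 change in TET KO of -0.40 relative to all genes at EB D4, and between -0.34 and -0.41 at the other conditions.

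At EB D4, markers of the primitive streak differed in the same direction as Sp5, Axin2 and Nkd1 in both knockouts. The summed level of Eomes, Mixl1, Mesp1, Gsc, Evx1 and Fgf8 was 502 to 539 RPKM in TET KO at EB D4, against 47.0 to 70.0 in TET WT, where Mesp1 had no read, and all 6 were called higher. In DNMT KO the same sum was 6.93 to 8.50 RPKM at EB D4, again with no read of Mesp1, against 119 to 160 in DNMT WT, and 5 of 6 were called lower. At EB D6 the sums were 72.3 to 78.4 RPKM in TET KO, against 96.7 to 114 in TET WT. They were 40.6 to 45.7 in DNMT KO, against 131 to 151 in DNMT WT. The TET KO streak sum was thus below TET WT at EB D6, where no member was called. Axin2 then averaged 24.2 RPKM in TET KO and 14.5 in TET WT, Sp5 20.2 and 11.9, and Dkk1 16.4 and 10.1. Nkd1 went the other way, at 9.55 and 12.2. At EB D4 the 6 endoderm markers (Afp, Ttr, Apoa1, Amn, Cubn and Rbp4) summed to 2.30 to 3.37 RPKM in TET KO, with no read of Afp, against 13.2 to 21.1 in TET WT. The 6 EpiLC markers (Fgf5, Pou3f1, Otx2, Sox3, Foxd3 and Fgf15) summed to 106 to 110 RPKM in TET KO, against 129 to 191 in TET WT. Without TET WT replicate 2, the TET WT sums at EB D4 were 62.8 to 70.0 RPKM for the streak, 18.8 to 21.1 for the endoderm and 185 to 191 for the EpiLC markers. The part of the makeup of cell types in the feedback results was not tested.

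At EB D6 the differences between the TET lines were smaller. By limma, 0 of 10 members were called in TET KO (5.02% of all genes), with 8 at an adjusted p under 0.05 and 9 at an unadjusted p under 0.05, and voom on recovered reads also called 0. Sp5 was then 21.3, 19.4 and 19.96 RPKM in TET KO, against 14.3, 10.7 and 10.6 in TET WT (log2 change 0.75). At EB D8, Sp5 was the 1 member called (9.98% of all genes), at 9.83, 10.1 and 8.20 RPKM in TET KO, against 1.67, 0.766 and 2.64 in TET WT (2.26 ± 0.26 SE, adjusted p = 9.36e-06). Axin2 was 8.89, 8.52 and 9.07 RPKM in TET KO at EB D8, against 4.17, 3.68 and 5.01 in TET WT, just below the size threshold (0.97), and passed it without TET WT replicate 3 (1.08). Streak markers summed to 48.2 to 56.0 RPKM in TET KO at EB D8, against 5.22 to 8.97 in TET WT, with 4 of 6 called higher. EpiLC markers summed to 55.3 to 67.6 RPKM in TET KO, against 6.29 to 9.51 in TET WT, with 6 of 6 called higher. Endoderm markers summed to 18.3 to 20.7 RPKM in TET KO, against 770 to 892 in TET WT, with 6 of 6 called lower. The part of these markers in the Sp5 result was not tested.

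Before EB D4, Notum was the member with the largest falls in TET KO. At ESC D0 it was 26.1, 27.9 and 24.7 RPKM in TET KO, against 57.1, 53.7 and 58.8 in TET WT (log2 change -1.09 ± 0.05 SE). At EpiLC D1 it was 3.47, 3.47 and 3.49 RPKM in TET KO, against 26.7, 29.5 and 28.2 in TET WT (-2.85 ± 0.06 SE, adjusted p = 3.63e-10). At EpiLC D2 it was 0.476, 0.513 and 0.249 RPKM in TET KO, against 7.57, 8.30 and 7.90 in TET WT (-3.22 ± 0.14 SE, adjusted p = 1.48e-08). The gap thus opened in stem cells and was 19.2-fold in mean RPKM by EpiLC D2, with no overlap at any of these conditions. At EB D2 the 2 TET KO libraries held 1.59 and 1.33 RPKM, against 21.4, 24.1 and 27.8 in TET WT (-3.67 ± 0.14 SE, adjusted p = 5.2e-07). By EB D6 the ranges overlapped, at 2.63, 2.55 and 1.78 RPKM in TET KO and 3.55, 1.64 and 1.64 in TET WT (log2 change 0.08). The naive markers did not fall with Notum at ESC D0. Their sum there was 1200 to 1250 RPKM in TET KO, against 1139 to 1159 in TET WT, and 0 of 6 were called. It was 274 to 302 RPKM in TET KO at EpiLC D1, against 559 to 571 in TET WT, and 2 of 6 were called lower. At EpiLC D2 it was 116 to 137 RPKM in TET KO, against 251 to 337 in TET WT, with 2 of 6 called lower. At EB D2 it was 80.5 RPKM in both TET KO libraries, against 223 to 250 in TET WT, with 4 of 6 called lower, and their part in the Notum falls was not tested.

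Notum is overlapped by Notumos, a gene on the opposite strand, and the sources used here do not say whether the counting used strand, so their reads may not be told apart. Notumos averaged 0.30 ± 0.218 RPKM in TET KO and 1.35 ± 0.368 in TET WT at EpiLC D1 (SD, n = 3 each; log2 change -1.23, called), and it was also called lower at EB D2 (-1.55). Its highest value in any library was 2.05 RPKM, against 58.8 for Notum. In DNMT KO it was not called at EB D4, D6 or D8, with log2 changes of 0.81, 0.51 and 0.62. Myadml2os, also on the opposite strand of Notum, did not pass 0.238 RPKM in any library.

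Dkk1 also fell early in TET KO, at lower read numbers. At EB D2 it had 5 reads in 1 TET KO library and none in the other, against 1.64, 1.60 and 1.96 RPKM in TET WT (log2 change -1.85 ± 0.24 SE, adjusted p = 0.000347). At EpiLC D2 it had 1, 1 and 0 reads in TET KO, against 0.614, 0.648 and 1.19 RPKM in TET WT (-1.25 ± 0.22 SE, adjusted p = 0.000804), and this missed the size threshold with a pseudocount of 1 RPKM (-0.78). At ESC D0 the change was -0.90, below the size threshold, and it passed without TET WT replicate 2 (-1.20) or TET KO replicate 2 (-1.01). Dkk1 in TET KO was thus below TET WT at ESC D0, EpiLC D2 and EB D2 and above it at EB D4, with no overlap at those 4 conditions.

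Sp5 at ESC D0 was lower in TET KO (17.4, 16.3 and 13.7 RPKM, against 32.9, 33.0 and 34.0 in TET WT, log2 change -1.06 ± 0.09 SE, adjusted p = 4.32e-06). Without TET KO replicate 3 the change was -0.96, below the size threshold. At EpiLC D1, EpiLC D2 and EB D2 Sp5 had at most 7 reads in any TET KO library and 1 in any TET WT library, so no difference was detectable at this depth. Nkd1 lay above TET WT at all 4 early conditions without reaching the size threshold (log2 changes of 0.89, 0.58, 0.59 and 0.92, each at an adjusted p under 0.05). Lgr5 had at most 7 reads in any TET KO or TET WT library before EB D4 and was called at no condition in TET KO.

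**Figure D2:**
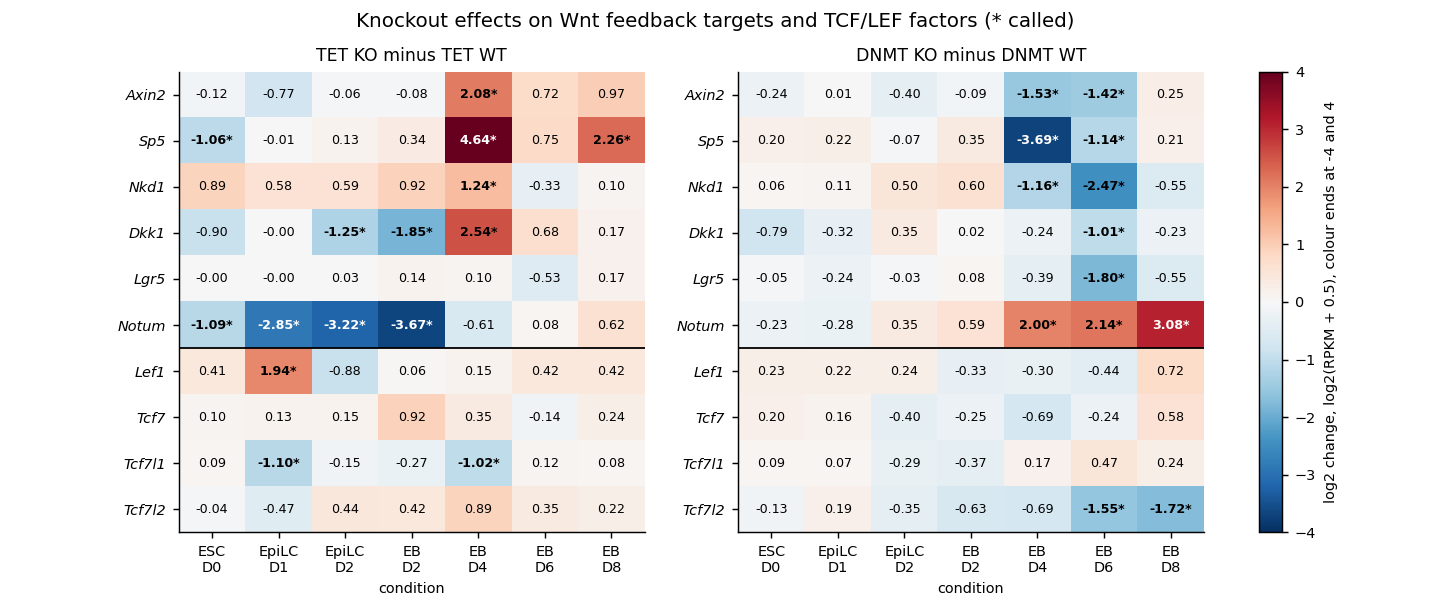
Log2 change of each gene in TET KO minus TET WT (left) and DNMT KO minus DNMT WT (right) at 7 conditions, in colour from -4 to 4, with called differences marked by a star. Axin2, Sp5 and Nkd1 were higher in TET KO and lower in DNMT KO at EB D4, while Notum was lower in TET KO before EB D4 and higher in DNMT KO from EB D4.

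The third comparison asked the same of DNMT KO and its parental line. In DNMT KO, 13 of 70 differences were called, 3 higher and 10 lower, against 6.76% of all differences over all genes tested (4.05% higher and 2.71% lower). All 13 fell at EB D4, D6 or D8. One of them is Lgr5 at EB D6, which the filter on low values selected, and 12 of 69 were called without it. The 3 rises were all of Notum, and the falls were of Axin2, Sp5, Nkd1, Dkk1, Lgr5 and Tcf7l2. From ESC D0 to EB D2, 0 members were called, with an adjusted p under 0.05 by limma in 3, 1, 0 and 5 of 10 members and an unadjusted p under 0.05 in 4, 4, 3 and 6. The background at those conditions was low, at 1.03%, 0.95%, 1.59% and 1.14% of all genes, and voom on recovered reads called Dkk1 at ESC D0 (log2 change -1.37) and Tcf7l2 at EB D2 (-1.31). The 0 at EB D2 rests on 2 DNMT KO libraries, which correlated at 0.985, against 0.993 for each pair of DNMT WT libraries.

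At EB D4, 4 of 10 members were called in DNMT KO (5.82% of all genes), 1 higher (4.51%) and 3 lower (1.31%). Sp5 was 0.218, 1.57 and 1.43 RPKM in DNMT KO, against 14.0 and 22.6 in DNMT WT (log2 change -3.69 ± 0.42 SE, adjusted p = 0.000223). Axin2 was 2.96, 3.08 and 3.58 RPKM in DNMT KO, against 9.83 and 10.54 in DNMT WT (-1.53 ± 0.16 SE, adjusted p = 2.59e-06). Nkd1 was 0.803, 1.23 and 1.21 RPKM in DNMT KO, against 2.68 and 3.34 in DNMT WT (-1.16 ± 0.16 SE, adjusted p = 6e-05), and missed the size threshold with a pseudocount of 1 RPKM (-0.95). The groups did not overlap for any of the 3. Dkk1 was 0.830, 0.642 and 0.357 RPKM in DNMT KO and 0.449 and 1.26 in DNMT WT, with overlapping groups and no call (log2 change -0.24).

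At EB D6 the same comparison called 7 of 10 members (17.9% of all genes), 1 higher (11.1%) and 6 lower (6.88%), or 6 of 9 without Lgr5. Nkd1 was 2.56, 2.12 and 2.08 RPKM in DNMT KO, against 13.9, 14.7 and 15.4 in DNMT WT (log2 change -2.47 ± 0.08 SE, adjusted p = 8.51e-11). Axin2 was 5.65, 6.18 and 4.98 RPKM in DNMT KO, against 16.6, 15.8 and 14.8 in DNMT WT (-1.42 ± 0.08 SE). Sp5 was 7.45, 6.12 and 6.03 RPKM in DNMT KO, against 13.9, 14.9 and 16.1 in DNMT WT (-1.14 ± 0.11 SE). In each case the highest DNMT KO library was below the lowest DNMT WT library. Dkk1 was 4.76, 3.28 and 3.42 RPKM in DNMT KO, against 7.79, 8.16 and 8.43 in DNMT WT (-1.01 ± 0.12 SE, adjusted p = 1.01e-05). Its change was near the threshold, and fell below it without DNMT WT replicate 3 (-0.99), DNMT KO replicate 2 (-0.92) or DNMT KO replicate 3 (-0.95). Lgr5 was 0.154, 0.140 and 0.125 RPKM in DNMT KO, against 1.61, 1.60 and 2.00 in DNMT WT (-1.80).

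By EB D8 most of this difference had closed, although 18.9% of all genes were called in DNMT KO. Axin2 was 6.74, 6.61 and 6.26 RPKM in DNMT KO, against 5.62, 5.53 and 5.07 in DNMT WT (log2 change 0.25). Sp5 was 2.66, 3.76 and 3.16 RPKM in DNMT KO, against 3.15, 2.02 and 2.95 in DNMT WT (0.21, overlapping groups). Nkd1 was 6.26, 4.44 and 4.79 RPKM in DNMT KO, against 7.79, 8.20 and 7.27 in DNMT WT, a change of -0.55 below the size threshold. The 2 members called at EB D8 were Notum and Tcf7l2.

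Notum rose in DNMT KO at EB D4, EB D6 and EB D8. At EB D4 it was 10.9, 11.6 and 12.01 RPKM in DNMT KO, against 2.75 and 2.28 in DNMT WT (log2 change 2.00 ± 0.17 SE, adjusted p = 2.95e-07). At EB D6 it was 10.6, 11.9 and 11.9 RPKM in DNMT KO, against 2.59, 2.09 and 1.99 in DNMT WT (2.14 ± 0.22 SE, adjusted p = 2.27e-06). At EB D8 it was 8.06, 10.05 and 9.03 RPKM in DNMT KO, against 0.588, 0.778 and 0.522 in DNMT WT (3.08 ± 0.14 SE, adjusted p = 6.34e-10), 14.4-fold in mean RPKM. The DNMT WT level was lowest at EB D8, while DNMT KO lay between 8.06 and 12.01 RPKM over the 3 days. Naive stem cell markers were also higher in DNMT KO. Their sum at EB D8 was 319 to 329 RPKM in DNMT KO, against 28.8 to 32.6 in DNMT WT. At EB D4 it was 288 to 302 in DNMT KO, against 173 to 175 in DNMT WT. In DNMT WT at EB D2 the naive sum was lower, at 112 to 128, while mean Notum was 4.62 RPKM at EB D2 and 2.52 at EB D4. EpiLC markers summed to 64.4 to 74.4 RPKM in DNMT KO at EB D8, against 11.4 to 12.2 in DNMT WT. At EB D4 they were lower in DNMT KO, at 112 to 125, against 195 to 204. The part of these markers in the Notum result was not tested.

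The difference between the 2 knockout effects was tested directly, as the DNMT KO effect minus the TET KO effect. It was called for 29 of 70 differences, 12 positive and 17 negative, against 13.5% of all differences over all genes tested, and 28 of 69 without Lgr5 at EB D6. At EB D4 it was called for 8 of 10 members (16.1% of all genes). The difference was -8.33 ± 0.56 SE for Sp5, -3.61 ± 0.22 SE for Axin2, -2.40 ± 0.22 SE for Nkd1 and -2.78 ± 0.50 SE for Dkk1, and Sp5, Axin2 and Nkd1 were called in opposite directions in the 2 knockouts. Notum had the opposite sign, at 2.61 ± 0.23 SE, and its difference was called at 6 of 7 conditions, each time positive. Without TET WT replicate 2 or without DNMT WT replicate 2, 7 of 10 members were called at EB D4, and the member lost was Tcf7 (-0.90 and -0.9988).

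The parental lines themselves were compared, as TET WT minus DNMT WT, a comparison added after the data were seen. It called 12 of 70 differences, 6 higher and 6 lower, against 7.79% of all differences over all genes tested. Notum was higher in TET WT at ESC D0 (57.1, 53.7 and 58.8 RPKM in TET WT, against 14.8 and 13.7 in DNMT WT, log2 change 1.95), EpiLC D2 (1.68) and EB D2 (2.28). Dkk1 was higher in TET WT at EB D2 (1.64), and Axin2 was lower in TET WT at EpiLC D2 (-1.20). At EB D4 Sp5 and Nkd1 were lower in TET WT (2 of 10 members called, 2.29% of all genes). Sp5 there was 4.0, 3.13 and 4.71 RPKM in TET WT, against 14.0 and 22.6 in DNMT WT (-2.06, adjusted p = 0.016), and the adjusted p was 0.0518 without DNMT WT replicate 1 and 0.164 without DNMT WT replicate 2, while without TET WT replicate 2 the change was -1.92 and still called. Nkd1 was 1.16, 1.13 and 1.10 RPKM in TET WT, against 2.68 and 3.34 in DNMT WT (-1.10), and fell below the size threshold without DNMT WT replicate 2 (-0.97). At EB D6 and EB D8, limma called 0 members between the parental lines (2% and 2.44% of all genes), as did voom, and 6 and 4 members had an unadjusted p under 0.05.

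The TCF/LEF factors differed widely in level. Tcf7 and Tcf7l1 were at 13.8 and 5.43 RPKM or more in all 79 libraries, while Tcf7l2 did not pass 5.82 RPKM and Lef1 spanned 0.170 to 19.9 RPKM. As shares of the summed RPKM of the 4 factors, Tcf7 took 64.6% ± 1.32 in TET KO and 64.7% ± 0.922 in TET WT at ESC D0, and 39.7% ± 1.26 in DNMT KO and 37.6% ± 0.498 in DNMT WT (SD, n = 3 except DNMT WT, n = 2). Tcf7l1 took 29.9% ± 1.23 in TET KO and 30.2% ± 0.864 in TET WT, and 57.6% ± 1.19 in DNMT KO and 59.2% ± 0.447 in DNMT WT. Stem cells of the TET pair thus held more of the activating Tcf7 and those of the DNMT pair more of the repressor Tcf7l1. Between the parents at ESC D0, Tcf7l1 was 16.8, 17.0 and 17.1 RPKM in TET WT, against 36.1 and 36.8 in DNMT WT (log2 change -1.08, adjusted p = 7.55e-08). It was also lower in TET WT at EpiLC D2 (-1.52), at 5.43, 7.19 and 7.75 RPKM, against 24.7, 19.6 and 16.9 in DNMT WT.

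**Figure D3:**
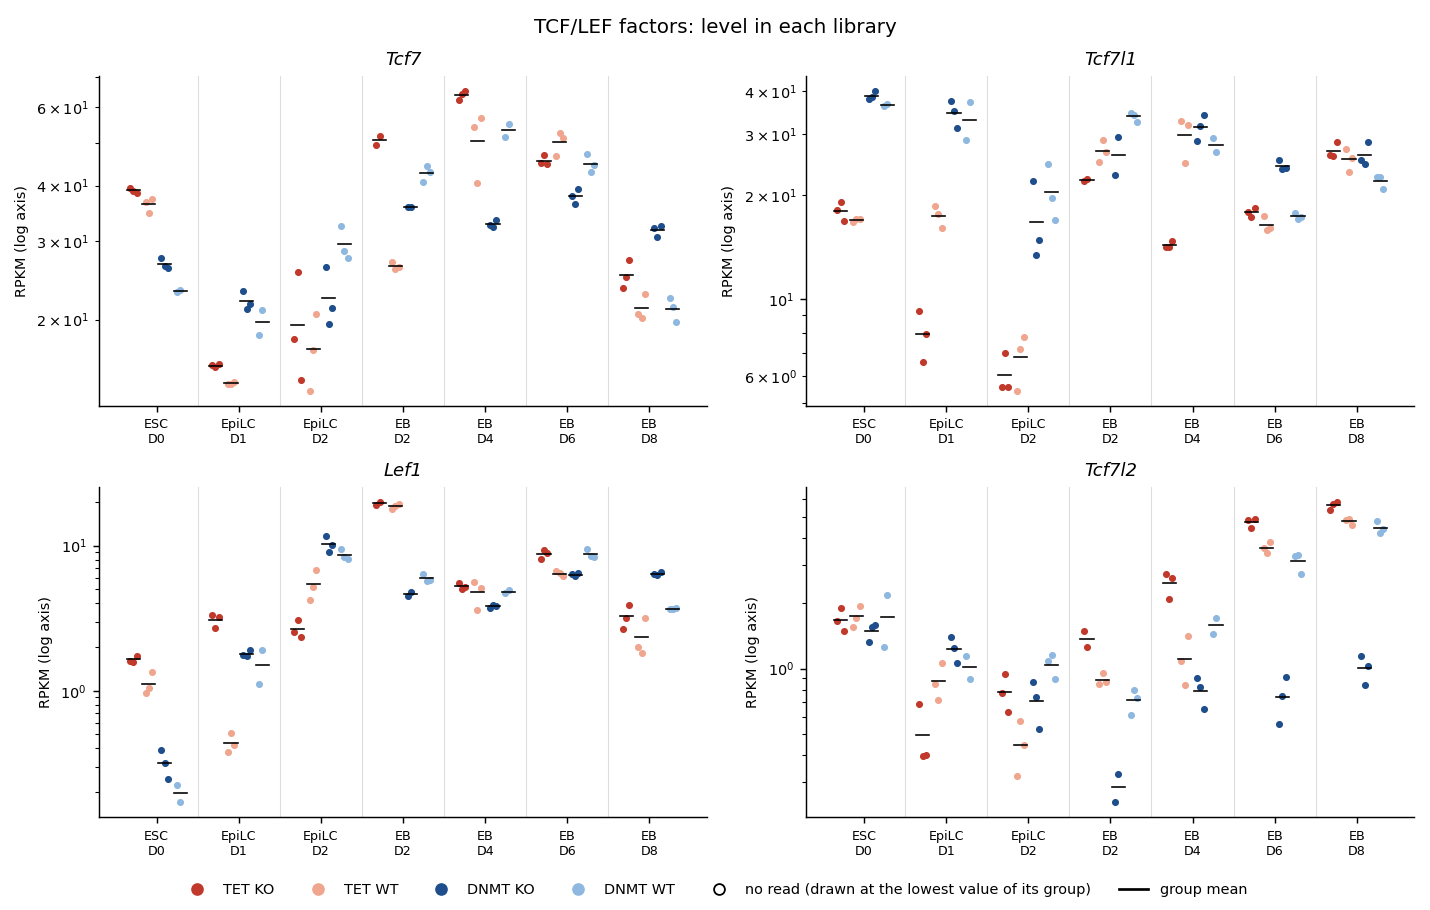
Level of the TCF/LEF factors in each library, in RPKM on a log axis, at 7 conditions in TET KO, TET WT, DNMT KO and DNMT WT, with black lines for group means. Tcf7l2 at EB D8 was 1.15, 0.841 and 1.03 RPKM in DNMT KO, against 4.75, 4.22 and 4.38 in DNMT WT.

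Tcf7l1 fell in TET KO at EpiLC D1 and EB D4. At EB D4 it was 14.1, 14.1 and 14.7 RPKM in TET KO, against 32.8, 24.7 and 32.0 in TET WT (log2 change -1.02 ± 0.13 SE, adjusted p = 9.98e-06). The groups were apart, but the change was near the threshold, at -0.95 without TET WT replicate 1, -0.97 without TET WT replicate 3 and -1.15 without TET WT replicate 2. Under centring the change was -1.32. At EpiLC D1 it was 9.22, 6.58 and 7.92 RPKM in TET KO, against 18.6, 17.6 and 16.1 in TET WT (-1.10 ± 0.13 SE), and fell below the threshold without TET KO replicate 2 (-0.98), under centring (-0.99) or with quantile normalization (-0.97). Genes of chromosome 6, which holds Tcf7l1, had a median of -0.17 relative to all genes at EB D4 and -0.04 at EpiLC D1 in TET KO. As a share of the summed RPKM, Tcf7l1 was 16.7% ± 0.118 in TET KO and 34.7% ± 0.987 in TET WT at EB D4 (SD, n = 3 each).

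Lef1 was low in stem cells and rose in every line. In TET WT it was 17.9, 18.9 and 19.4 RPKM at EB D2, against 0.967, 1.04 and 1.36 at ESC D0 (log2 change 3.58), and in TET KO 19.2 and 19.9 RPKM at EB D2. In the DNMT lines it was 11.7, 9.03 and 10.1 RPKM in DNMT KO and 9.46, 8.33 and 8.03 in DNMT WT at EpiLC D2, the highest mean of DNMT KO, while in DNMT WT the values at EB D6 overlapped these. At EB D2 the TET lines stood above the DNMT lines, and TET WT was called higher than DNMT WT (1.57). TET WT was also called higher at ESC D0 (log2 change 1.21), but not with a pseudocount of 1 RPKM (0.82). It was called lower at EpiLC D1 (-1.07). That call was lost without 1 of the 2 DNMT WT libraries (-0.79), with a pseudocount of 1 RPKM (-0.79), the replicate block (-0.79) or quantile normalization (-0.90). The number of that library matches no sample title, so it was used without one. In TET KO, Lef1 was already 3.32, 2.73 and 3.22 RPKM at EpiLC D1, against 0.378, 0.508 and 0.422 in TET WT (1.94 ± 0.14 SE, adjusted p = 2.73e-06). A day later the order was the other way round, at 2.54, 3.09 and 2.36 RPKM in TET KO, against 4.21, 5.19 and 6.80 in TET WT (-0.88, below the size threshold, and -1.03 without TET WT replicate 1).

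Tcf7l2, best known for its role in the intestine, rose late in 3 of the 4 lines and not in DNMT KO. Against ESC D0, its rise at EB D8 missed the size threshold in TET WT under centring (0.97) or quantile normalization (0.84). In DNMT WT the rise missed it under centring (0.88), with quantile normalization (0.80) or without 1 library (0.88). At EB D8 Tcf7l2 was 1.15, 0.841 and 1.03 RPKM in DNMT KO, against 4.75, 4.22 and 4.38 in DNMT WT (log2 change -1.72 ± 0.09 SE, adjusted p = 1.7e-09). At EB D6 it was 0.554, 0.746 and 0.917 RPKM in DNMT KO, against 3.31, 3.32 and 2.73 in DNMT WT (-1.55 ± 0.11 SE, adjusted p = 8.2e-08). Both differences were 4.22-fold or more in mean RPKM. At EB D8 the endoderm markers summed to 48.5 to 58.3 RPKM in DNMT KO, against 530 to 553 in DNMT WT. For TET KO at EB D8 this endoderm sum likewise lay below its parent (18.3 to 20.7 RPKM, against 770 to 892). Tcf7l2 did not, with a mean at EB D8 of 5.64 RPKM in TET KO, against 4.77 in TET WT. The naive markers at EB D8, given with Notum, were higher in DNMT KO. Naive markers at EB D6 summed to 324 to 339 RPKM in DNMT KO, against 52.3 to 55.9 in DNMT WT, and the part of these markers in the Tcf7l2 result was not tested. In TET KO the change reached 0.89 at EB D4, at 2.72, 2.08 and 2.6 RPKM, against 1.08, 0.840 and 1.41 in TET WT, and passed the size threshold without TET WT replicate 3 (1.02), with a change of 0.77 without replicate 2. The difference between the knockout effects was called at EB D2, D4, D6 and D8 for Tcf7l2, always negative. The share of Tcf7l2 in the summed RPKM at EB D8 was 1.54% ± 0.210 in DNMT KO and 8.68% ± 0.460 in DNMT WT (SD, n = 3 each).

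Tcf7 was called in neither knockout at any condition, by limma or by voom. Its largest change in TET KO was at EB D2, at 49.5 and 51.6 RPKM in TET KO, against 27.0, 26.0 and 26.2 in TET WT (log2 change 0.92, adjusted p = 7.2e-06). In DNMT KO it was 32.6, 32.3 and 33.4 RPKM at EB D4, against 51.6 and 54.9 in DNMT WT (-0.69), and 32.2, 30.7 and 32.5 RPKM at EB D8, against 22.4, 21.3 and 19.7 in DNMT WT (0.58). Each of these groups stood apart from its parent, below the size threshold. The difference between the knockout effects was called for Tcf7 at EB D2 (-1.17).

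**Figure D4:**
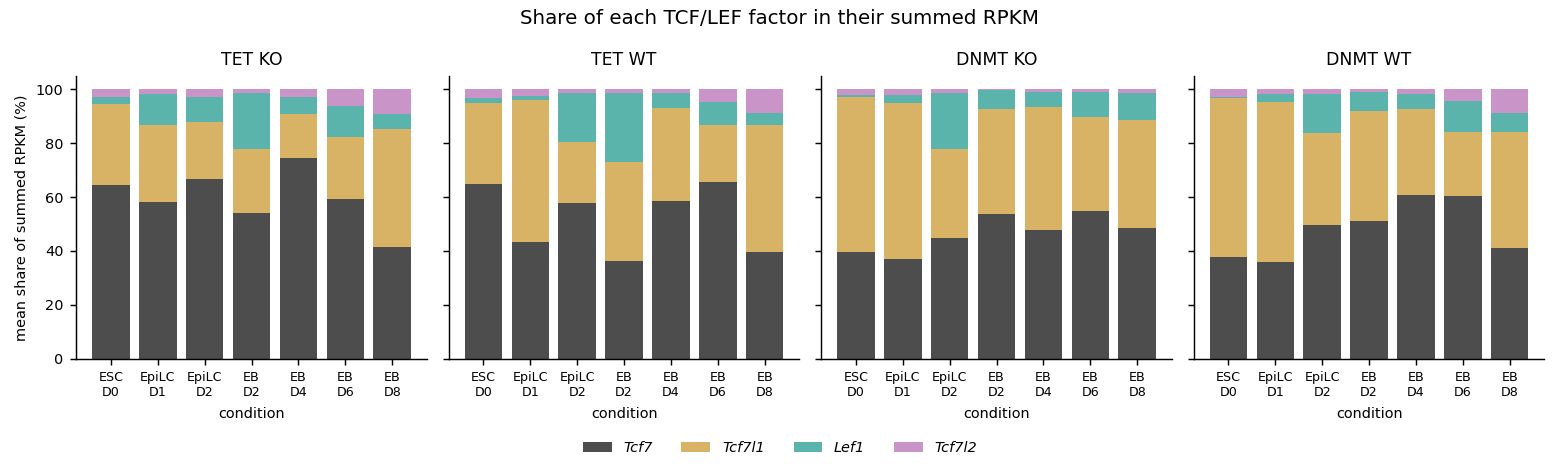
Mean share of Tcf7, Tcf7l1, Lef1 and Tcf7l2 in their summed RPKM, in percent, at 7 conditions in each line. At EB D4 the Tcf7l1 share was 16.7% in TET KO and 34.7% in TET WT, and the Tcf7 share 74.3% and 58.5% in the same lines.

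For each member the genes with the most similar pattern were read from the 28 group means on the log2(RPKM + 0.5) scale. These correlations are descriptions over groups that share lines, libraries and depth. Sp5 was most like Gsc (r = 0.952), Hes1 (0.937) and Zyg11b (0.884). Axin2 was most like Mcc (0.892), Sptlc2 (0.881) and Zyg11b (0.880). Of the second course, Nkd1 was most like Greb1 (0.968), Msx1 (0.960) and Kcnmb4 (0.960), Dkk1 like Sox17 (0.951), Tmem176b (0.939) and Pcdh7 (0.930), and Lgr5 like Gm49319 (0.953), Rubie (0.9497) and Fendrr (0.948). The genes nearest to Notum were its antisense neighbour Notumos (0.923), Epop (0.894) and 2410137M14Rik (0.883). Among the factors, Lef1 was nearest to Ccdc136 (0.860), Vrtn (0.857) and Phf21a (0.845), and Tcf7l2 to Letmd1 (0.944), Zmiz1 (0.943) and Atat1 (0.933). Tcf7 was nearest to Gm7932 (0.873), Phyhip (0.858) and Tbl2 (0.843), and Tcf7l1 to N4bp1 (0.867), Cactin (0.865) and Plekhg1 (0.863). Within the 10 genes, the highest correlations were between Axin2 and Sp5 (0.899) and between Nkd1 and Dkk1 (0.861), and Nkd1 and Notum ran against each other (-0.586).

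Other genes of the pathway were read from 7 lists of 81 genes, of which 68 were tested: ligands, receptors, the R-spondin and LGR axis, inhibitors, the destruction complex, nuclear cofactors and other targets. In TET KO they gave 74 calls over 7 conditions, 61 higher and 13 lower, and in DNMT KO 66 calls, 26 higher and 40 lower, where 7.6% and 6.76% of all differences over all genes were called. The TET KO count was 60 under centring and 54 with quantile normalization. Its rises include Rspo4 at 4 conditions, among them EB D4. This gene passed the filter on low values only through TET KO libraries. At EB D4, TET KO had 20 of 68 called (9.47% of all genes), 17 higher (7.6%) and 3 lower (1.87%). The median log2 change was 0.60, against 0.19 over all genes. Without TET WT replicate 2, 20 of 68 were called, 16 higher and 4 lower, with a median of 0.41. In DNMT KO 8 of 68 were called at EB D4 (5.82% of all genes), 1 higher (4.51%) and 7 lower (1.31%), with a median of -0.04, against 0.00. Of 9 other targets, which include T, Cdx1 and Cdx2, 5 were called higher in TET KO at EB D4. In DNMT KO 1 was called higher and 2 lower at EB D4, 5 lower at EB D6 (17.9% of all genes), and 3 higher and 2 lower at EB D8 (18.9%). Of 10 ligands tested, 4 were called higher in TET KO at EB D4 and 3 lower in DNMT KO at EB D4. The 11 genes of the destruction complex had a median log2 change of 0.13 in TET KO and -0.12 in DNMT KO at EB D4.

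**Figure D5:**
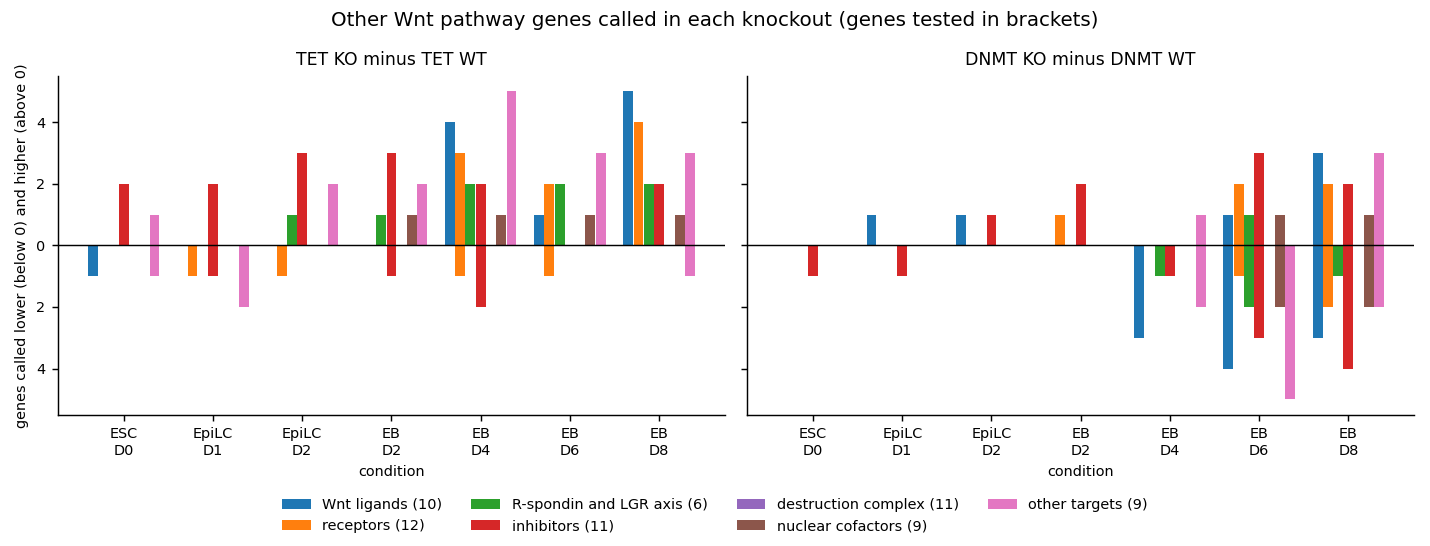
Number of other Wnt pathway genes called higher (above 0) and lower (below 0) in TET KO (left) and DNMT KO (right) at 7 conditions, by list, with the genes tested in brackets. In TET KO at EB D4 17 of 68 genes were higher and 3 lower (7.6% and 1.87% of all genes). The 17 include Rspo4, which passed the filter on low values only through TET KO libraries. In DNMT KO at EB D6 8 were higher and 17 lower (11.1% and 6.88% of all genes).

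Of the pathway genes, those called at most conditions in TET KO were Cdx2, Dkk3, Sfrp1 and Rspo4. Cdx2, a homeobox factor of the posterior embryo, was higher at EpiLC D2, EB D2, EB D4 and EB D6 and lower at EB D8. At EB D4 it averaged 11.3 ± 1.44 RPKM in TET KO and 0.266 ± 0.128 in TET WT (SD, n = 3 each; log2 change 3.95, adjusted p = 5.24e-11). Dkk3, a relative of Dkk1, was higher at every condition from ESC D0 to EB D4, with log2 changes of 1.04 to 1.65. Sfrp1, a secreted Wnt binder, was lower at EpiLC D1 (-1.13), EB D2 (-1.33) and EB D4 (-1.75) and higher at EB D8 (1.64). Rspo4, an R-spondin ligand, was higher at EpiLC D2, EB D4, EB D6 and EB D8, with log2 changes of 1.08 to 1.39. It passed the filter on low values only through TET KO libraries, so its differences are given as a description. The TET KO pathway counts include them. Its mean reached 1 RPKM only in TET KO at EB D4 (1.20 ± 0.138, against 0.154 ± 0.118 in TET WT, SD, n = 3 each). In TET WT it averaged 0.036 RPKM at EB D6 and 0.030 at EB D8. At EB D4 all 4 were also called without TET WT replicate 2.

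In DNMT KO the corresponding genes were Wnt8a, Sfrp4, Frzb and Apcdd1. Wnt8a, a ligand of the primitive streak, averaged 1.17 ± 0.349 RPKM in DNMT KO (SD, n = 3) and 22.6 ± 1.62 in DNMT WT (SD, n = 2) at EB D4 (log2 change -3.81, adjusted p = 5.97e-09), and was higher at EpiLC D1, EpiLC D2 and EB D8 (1.25, 1.04 and 1.65). Sfrp4, a secreted inhibitor, was higher at EpiLC D2, EB D2, EB D6 and EB D8, and averaged 4.47 ± 0.589 RPKM in DNMT KO and 0.290 ± 0.130 in DNMT WT at EB D6 (SD, n = 3 each; log2 change 2.66). Frzb, another secreted inhibitor, was lower at EB D4, D6 and D8 (-1.62, -2.79 and -2.48), and in TET KO it was higher at EB D4 (4.05, and 4.10 without TET WT replicate 2). Apcdd1, a membrane inhibitor, was lower at ESC D0 (-1.10), EpiLC D1 (-1.06) and EB D6 (-2.78).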

How the data were processed

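RNA was isolated with QIAshredder and RNeasy columns and treated with TURBO DNase, and libraries were stranded after oligo-dT selection, per the labels' protocols. Trim Galore 0.6.1, cutadapt 1.18, HISAT2 2.1.0 and the GRCm38 build are named in the submitters' processing notes. How reads were counted, with or without strand, and on which annotation is not given in the sources used here. Values are log2 RPKM per gene and library, as the authors deposited them, where 0 reads appear as 0.9 reads. With merged exon lengths of GENCODE M21, 96.9% of values of 1 to 20 reads were whole reads within 0.1.

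Of 35269 entries, 39 were left out. Values were taken back to RPKM, and limma 3.58.1 (R 4.3.3, trended and robust) was run on log2(RPKM + 0.5) over 15267 genes, with 1 fit per condition over the 4 lines, or 8 groups with ESC D0, and Benjamini-Hochberg adjustment over all genes tested. Alternatives were pseudocounts of 0.1 and 1 RPKM, no filter, median centring, quantile normalization, voom on recovered reads, fits of 1 knockout with its parent, a replicate block and leaving out each library in turn. The pathway genes named are those called at most conditions per knockout, up to 4, and the 3 genes most like each member are those with the highest Pearson correlation. Members and lists were chosen with earlier results of these data known. Scripts were tested on simulated data.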

Additional observations from a re-analysis of the deposited data

Results flagged for a closer look

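For 29 combinations of gene and condition the effect of the DNMT knockout differed from that of the TET knockout by the test of the difference itself (limma, adjusted p under 0.05 and at least 1 in size). The values are the log2 change in DNMT KO against DNMT WT minus that in TET KO against TET WT. Sp5 differed by 1.26 at ESC D0, and by -8.33 (EB D4), -1.90 (EB D6) and -2.05 (EB D8) in embryoid bodies. Notum differed by 2.57 at EpiLC D1, 3.57 at EpiLC D2 and 4.26 at EB D2, and later by 2.61 (EB D4), 2.06 (EB D6) and 2.46 (EB D8). Axin2 differed by -3.61 at EB D4 and -2.14 at EB D6, and Nkd1 by -2.40 and -2.13 at the same days. Dkk1 differed by 1.60 at EpiLC D2, 1.87 at EB D2, -2.78 at EB D4 and -1.70 at EB D6, and Lgr5 by -1.27 at EB D6, a description, since the filter on low values selected it there. Among the TCF/LEF factors, Lef1 differed by -1.71 at EpiLC D1 and 1.12 at EpiLC D2, and Tcf7l1 by 1.18 at EpiLC D1 and 1.19 at EB D4. Tcf7 differed by -1.17 at EB D2 and -1.04 at EB D4. Tcf7l2 differed by -1.05 (EB D2), -1.58 (EB D4), -1.90 (EB D6) and -1.94 (EB D8).

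Under at least 1 alternative, 6 of these 29 fell below the size threshold. They were Tcf7l1 at EpiLC D1, Lef1 and Dkk1 at EpiLC D2, Tcf7l2 at EB D2, Tcf7 at EB D4 and Lgr5 at EB D6.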

How the results depend on the processing

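With voom on recovered reads the members called were 24 in TET KO (15 in limma) and 21 for TET WT minus DNMT WT (12). Pathway calls in TET KO were 120 with a pseudocount of 0.1 RPKM, 39 with 1 RPKM and 132 with voom (74 in limma), and 60 under centring and 54 with quantile normalization. The cause was not tested. Leaving out 1 replicate number of 1 line at every condition at once gave 14 to 16 members called in TET KO, 12 to 13 in DNMT KO, 28 to 29 for the difference and 10 to 13 for TET WT minus DNMT WT. Against ESC D0 it gave 30 to 31 in TET KO, 30 to 33 in TET WT, 22 to 23 in DNMT KO, 30 to 31 in DNMT WT, and pathway calls of 69 to 74 in TET KO and 62 to 69 in DNMT KO. Under every alternative, 10 of 15 calls held in TET KO, 11 of 13 in DNMT KO, 23 of 29 for the difference and 8 of 12 between parents.

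Of 153 results that no setting called and that had an adjusted p of 0.05 or more, 66 changed sign under some alternative. Among the others, centring reversed 4 values, none of them a called difference: Tcf7 in TET KO at ESC D0 (-0.023), Lgr5 for TET WT minus DNMT WT at EpiLC D2 (0.11), and against ESC D0 in DNMT KO Lgr5 at EB D4 (-0.041) and Tcf7 at EB D8 (-0.014). Replicate numbers were not used as pairs, since 0 of 9 comparisons with 3 pairs had every correlation over 0.1 (-0.222 to 0.289). This rule cannot exclude a shared culture or batch. In the DNMT lines at EpiLC D2 all 3 correlations were above 0 (0.071 to 0.289). With the replicate block, members called were 15 in TET KO, 13 in DNMT KO, 29 for the difference and 12 between parents, and 31, 31, 22 and 31 against ESC D0 in TET KO, TET WT, DNMT KO and DNMT WT, with 75 and 61 pathway calls in TET KO and DNMT KO. Low genes, Sp5 at EpiLC D1, EpiLC D2 and EB D2 and Lgr5 in most libraries, were limited by depth.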
